A study of Rattus norvegicus with 71 samples.

Results

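Cortical and hippocampal neuron identity genes are the transcription factors and related proteins by which neurons of the pallium, the dorsal telencephalon that forms the cortex and hippocampus, are specified and told apart by layer or field. A list of 33 such genes was read by gene symbol from a table of 17494 genes, and 28 of them had a row. Neurog2, Eomes, Emx1, Mef2c and Lmo3 were not analysed here. RNA came from the brains of 71 wild-type Sprague-Dawley rat offspring of 27 litters at postnatal day 2 (PND2), 1 coronal slice and 1 library per animal. The study's methods place the slice at the hippocampal formation with neighbouring cortex and subcortical tissue, whereas the design text of the series speaks of frontal cortex and hypothalamus.

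Exposure was set by the dam. Maternal autoantibody-related (MAR) autism is a form of autism linked to antibodies of the mother against fetal brain proteins, and dams were immunized with peptides of these proteins in Freund's adjuvant so that the offspring met MAR autism autoantibodies (MARA-ABs) in utero. Control dams received adjuvant and saline, so both arms share the adjuvant. The controls were 24 animals of 7 litters. The exposed animals were 8 of 4 litters for CRMP1+CRMP2 (collapsin response mediator proteins), 25 of 9 litters for LDHA/B+CRMP1+STIP1 (lactate dehydrogenase A and B with CRMP1 and stress-induced phosphoprotein 1), 6 of 3 litters for CRMP1+GDA (guanine deaminase) and 8 of 4 litters for STIP1+NSE (neuron-specific enolase). The animals were processed and sequenced in 2 experimental batches. The controls divided evenly, 12 to each. Of the LDHA/B+CRMP1+STIP1 group, 16 pups belonged to batch 1 and 9 to batch 2, and the remaining patterns belonged wholly to batch 2. Library totals ran from 24880182 to 36234952 counts.

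In the pallium, Emx and Lhx2 genes set dorsal identity in progenitors, and the nuclear receptors Nr2f1 and Nr2f2 (COUP-TFI and COUP-TFII) mark caudal territory. Newborn excitatory neurons then switch on Neurod factors and Tbr1. Cortical layers are separated by mutually opposed regulators: Fezf2 and Bcl11b (CTIP2) for neurons that project below the cortex, Tbr1, Sox5 and Tle4 for the deepest layer and subplate, and Cux1, Cux2 and Rorb for the upper layers. Prox1 marks granule neurons of the dentate gyrus, Zbtb20 hippocampal pyramidal fields and Wfs1 field CA1. Several of these genes are also used outside the pallium: Foxp2 and Bcl11b in striatal neurons, Foxp2, Prox1 and Nr2f2 in parts of the thalamus and hypothalamus.

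All 28 genes were well covered. The lowest count of any of them in any library was 124 for Emx2, and all passed every expression filter. Levels between genes were compared as RPKM, counts scaled by library size and by exon length. Lmo4 and Id2, regulators that lack a DNA-binding activity of their own, had the highest medians over the 71 slices, 197.7 and 177.7 RPKM. Below them the order depended on batch. In the controls of batch 1, Neurod6, a factor of postmitotic excitatory neurons, had a median of 167 RPKM, and in those of batch 2 the gene next in order was Nr2f1 at 148 RPKM. Zbtb20 and Emx2 were among the 3 lowest in both sets of controls, at 2.77 and 3.23 RPKM in batch 1 and at 1.71 and 4.11 RPKM in batch 2. Prox1 was the lowest of all in batch 1 controls (2.14 RPKM) and stood above Rorb (5.48 RPKM) and Wfs1 (6.59 RPKM) in batch 2 controls, at 8.05 RPKM. On rn7, the build of the files, the exons counted for the genes most discussed lie in the spans of Nr2f2 at chr1:124010247-124016202, Prox1 at chr13:101669184-101719804, Bcl11b at chr6:126834531-126926674, Mdga1 at chr20:7904358-7963471 and Cux2 at chr12:34520959-34705806.

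The genes varied unequally between slices. The SD of log2 CPM (counts scaled to library size) over 71 slices was largest for Nr2f2 (1.13), Prox1 (1.07) and Nr4a2 (0.645) and smallest for Etv1 (0.147), Bcl11a (0.234) and Tle4 (0.24). The median SD of the 28 genes was 0.412, beside 0.224 for 12474 expressed genes. Within group and batch it was 0.303 beside 0.202, so that much of the spread of Nr2f2 (0.41 within group and batch) and Nr2f1 (0.204, from 0.547 over all slices) lay between batches, whereas Fezf2 varied as much within groups (0.392) as over all slices (0.391).

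Promoter sequence is shown for 4 genes that the results below turn on: Neurod2 and Cux2, called higher in CRMP1+CRMP2 slices when each pup counts as a replicate but not when the litter does, Neurod6, which fell between the control batches, and Nr2f1, which rose between them. Each run holds the 250 bases before the annotated start, 5′ to 3′ on the strand of the gene, from RefSeq on assembly GRCr8 (the count table uses rn7). Capitals mark CAGATG, the E-box bound by Neurod and Neurog factors.
Neurod2, chr10:83824278-83824527, minus strand: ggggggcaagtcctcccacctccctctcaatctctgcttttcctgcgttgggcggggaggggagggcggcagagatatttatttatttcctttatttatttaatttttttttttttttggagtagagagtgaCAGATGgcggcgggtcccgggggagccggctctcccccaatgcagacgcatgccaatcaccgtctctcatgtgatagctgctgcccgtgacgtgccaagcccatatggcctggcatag
Neurod6, chr4:86180156-86180405, minus strand: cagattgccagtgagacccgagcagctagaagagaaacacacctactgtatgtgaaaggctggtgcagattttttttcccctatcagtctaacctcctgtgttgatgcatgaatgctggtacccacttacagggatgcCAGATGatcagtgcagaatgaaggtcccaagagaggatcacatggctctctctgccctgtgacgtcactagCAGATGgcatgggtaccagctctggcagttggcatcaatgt
Cux2, chr12:40179032-40179281, plus strand: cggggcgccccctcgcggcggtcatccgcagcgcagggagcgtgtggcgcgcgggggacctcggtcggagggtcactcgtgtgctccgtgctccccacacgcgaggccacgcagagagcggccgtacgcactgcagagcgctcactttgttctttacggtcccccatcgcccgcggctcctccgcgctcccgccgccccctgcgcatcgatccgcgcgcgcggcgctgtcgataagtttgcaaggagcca
Nr2f1, chr2:9785925-9786174, minus strand: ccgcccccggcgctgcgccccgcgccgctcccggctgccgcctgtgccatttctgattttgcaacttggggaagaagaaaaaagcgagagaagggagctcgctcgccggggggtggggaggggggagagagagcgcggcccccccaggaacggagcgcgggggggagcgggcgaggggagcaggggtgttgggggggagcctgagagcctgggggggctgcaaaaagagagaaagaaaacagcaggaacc

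Of the 28 genes, 18 had a promoter entry. CAGATG, searched on both strands, occurred in 3 of these windows, with 2 sites in Neurod6 and 1 each in Neurod2 and Nr4a2. That is 16.7% of windows, beside 13.96% of 33469 rat promoter windows of the same length. TCACACC, a T-box core of the kind Tbr1 binds, occurred in 1 window, that of Bcl11a (5.56% beside 3.218%). AGGTCA, the core motif of nuclear receptors such as Nr2f1, Nr2f2 and Rorb, occurred in 0 of 18 windows, beside 14.06% of all windows. A match of letters is a description of these windows only.

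The first comparison set the 12 controls of batch 2 against the 12 controls of batch 1, where no exposure differs. Among the 28 genes, 8 were higher and 15 were lower in batch 2 at FDR < 0.1 (FDR, the Benjamini-Hochberg adjusted p of edgeR's quasi-likelihood test over 12565 genes, with sex in the model). Of all genes tested, 41.5% passed, 21.3% as higher and 20.2% as lower. Nr2f2, Prox1 and Nr2f1 rose most, and Bcl11b, Rorb, Neurod6 and Tbr1 fell most. Since Nr2f2, Prox1 and Bcl11b are also used outside the pallium, these changes cannot be assigned to a cortical layer or hippocampal field. The CPM ranges of the control batches did not overlap for 6 genes (Nr2f2 and Prox1 higher, Bcl11b, Rorb, Tbr1 and Cux1 lower), beside 1.59% of 12573 genes.

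Among the progenitor regulators, Nr2f2 ran from 19.9 to 37.1 CPM (median 26.3) in the batch 1 controls and from 76.0 to 203 CPM (median 141) in the batch 2 controls. No slice of either set came near the other. The log2 fold change was 2.33 ± 0.14 (SE; FDR = 1.21e-11), about 5.04-fold. Nr2f1, its close relative, which patterns cortical areas from caudal to rostral, went from a median of 159.9 CPM (124 to 266) to 365 CPM (264 to 407), a log2 change of 1.11 ± 0.091 (FDR = 1.67e-09). The ranges touched through a single batch 1 slice, a male of litter IgG1 at 266 CPM. Lhx2, the selector of cortical identity, rose from a median of 72.7 to 99.6 CPM (0.44 ± 0.16, FDR = 0.0386), and Emx2 from 9.53 to 12.1 CPM (0.33 ± 0.12, FDR = 0.0313). The POU factors of migrating and upper-layer neurons went down, Pou3f2 (Brn2) from a median of 126 to 80.0 CPM with a log2 change of -0.75 ± 0.13 (FDR = 7.83e-05) and Pou3f3 (Brn1) from 322 to 226 CPM (-0.41 ± 0.095, FDR = 0.00154). Id2, an inhibitor of bHLH factors, had a log2 change of 0.06 ± 0.11 (FDR = 0.73).

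Among the neuronal differentiation factors, 5 of 6 measured fell. Neurod6 had a median of 327 CPM (173 to 464) in batch 1 controls and 159 CPM (115 to 223) in batch 2 controls, a log2 change of -0.97 ± 0.13 (FDR = 5.21e-06). Tbr1, a T-box factor of early-born glutamatergic neurons, went from 279 CPM (239 to 394) to 161 CPM (133 to 224), with no overlap (-0.86 ± 0.082, FDR = 1.94e-08). Lmo4 fell from a median of 409 to 269 CPM (-0.53 ± 0.069), Neurod2 from 171 to 136 CPM (-0.35 ± 0.11) and Bcl11a from 195 to 164 CPM (-0.20 ± 0.066), each with overlapping ranges. Neurod1, which is also the factor of dentate granule neurons, was the exception and rose from a median of 20.4 CPM (17.4 to 50.9) to 45.3 CPM (35.3 to 48.5), a log2 change of 0.83 ± 0.15 (FDR = 0.000133).

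Among the deep layer and subplate genes, Bcl11b fell from a median of 379 CPM (234 to 495) to 162 CPM (134 to 181), with no overlap and a log2 change of -1.23 ± 0.10 (FDR = 1.95e-09). Sox5 fell from a median of 52.4 to 35.97 CPM (-0.61 ± 0.11) and the corepressor Tle4 from 185 to 132 CPM (-0.38 ± 0.069). Nr4a2 (Nurr1), a subplate and claustrum marker, rose from a median of 37.9 CPM (19.1 to 88.7) to 72.8 CPM (58.3 to 152), a log2 change of 0.99 ± 0.18 (FDR = 0.000151). Fezf2, Foxp2, Etv1 and Ldb2 did not pass, with log2 changes of 0.14, 0.11, -0.10 and -0.13. All 4 upper layer genes fell. Rorb, the layer IV nuclear receptor, went from a median of 25.3 CPM (16.3 to 42.1) to 12.97 CPM (11.04 to 16.2; -1.02 ± 0.11, FDR = 1.38e-07). Cux1 went from 169 CPM (139 to 180.1) to 110.1 CPM (101 to 121), with a log2 change of -0.59 ± 0.043 (FDR = 9.15e-11). Cux2 (medians of 163 and 111 CPM, -0.55 ± 0.11) and Mdga1 (110.3 and 90.9 CPM, -0.25 ± 0.10) kept overlapping ranges. Among the hippocampal field markers, Prox1 went from 8.85 CPM (6.24 to 14.6) to 33.2 CPM (23.1 to 55.5; 2.05 ± 0.16, FDR = 6.30e-10), Wfs1 rose from a median of 13.3 to 17.99 CPM (0.44 ± 0.14, FDR = 0.0189) and Zbtb20 fell from 16.8 to 10.4 CPM (-0.63 ± 0.17, FDR = 0.00655). The hippocampal markers thus did not move in 1 direction.

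**Figure D1:**
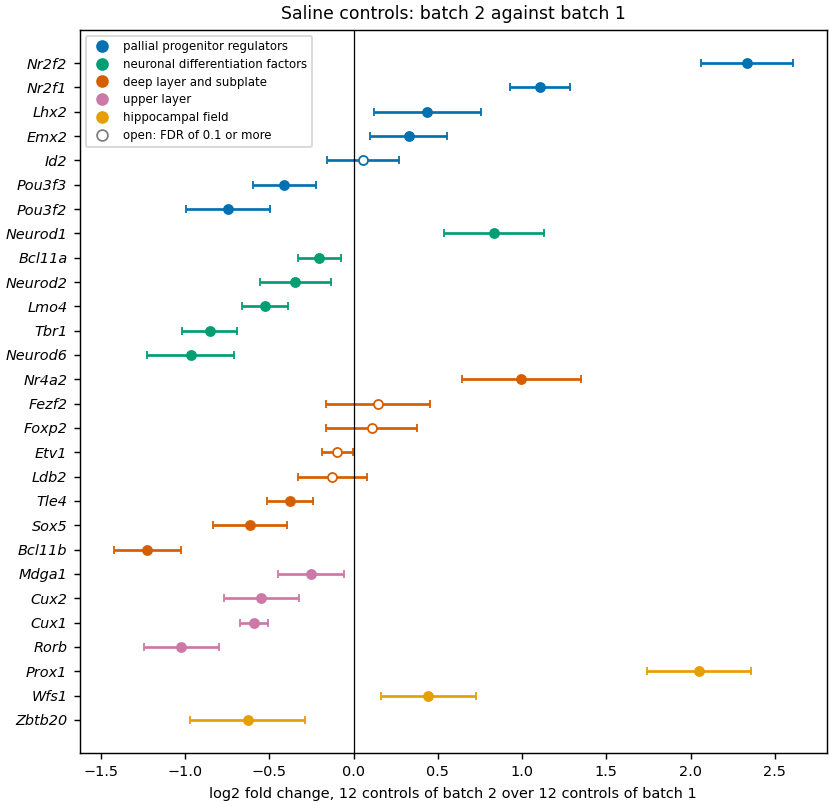
Log2 fold change of each gene (x axis) in the 12 controls of batch 2 over the 12 controls of batch 1, by role (colour), with bars for the 95% interval; filled points have FDR < 0.1. Nr2f2 and Prox1 lie beyond 2, Nr2f1 and Nr4a2 near 1, and Bcl11b, Rorb and Neurod6 near -1.

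Markers of neighbouring tissue moved in the same contrast. Of 20 diencephalon markers tested, 19 were higher in batch 2 (median log2 change 2.74) and their summed level ran from 103 to 362 CPM in batch 1 controls and from 571 to 1300 CPM in batch 2 controls. All 8 choroid plexus markers were higher (sums of 29.9 to 138 and 161 to 3050 CPM), and 14 of 19 striatum and interneuron markers were lower (588 to 1770 and 541 to 900 CPM). Of the 9 pan-neuronal genes, 1 was higher and 4 were lower, with log2 changes from -0.325 to 0.113 (median -0.10). Among 35 other pallial neuron genes tested, outside the list described here, 10 were higher and 12 lower with a median of -0.09, beside -0.23 for the 28 genes and 0.00173 for all genes. In bulk tissue, fewer cells of a type and less RNA per cell cannot be told apart, and the part of slice position, processing and sequencing run in these differences cannot be told apart. When litters were the unit, as a random effect in limma, 5 genes were higher and 12 lower (22.4% of all genes passed, 12.0% higher and 10.4% lower). With counts summed per litter the numbers were 7 and 12 (15.7%, 8.74% higher and 6.92% lower).

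**Figure D2:**
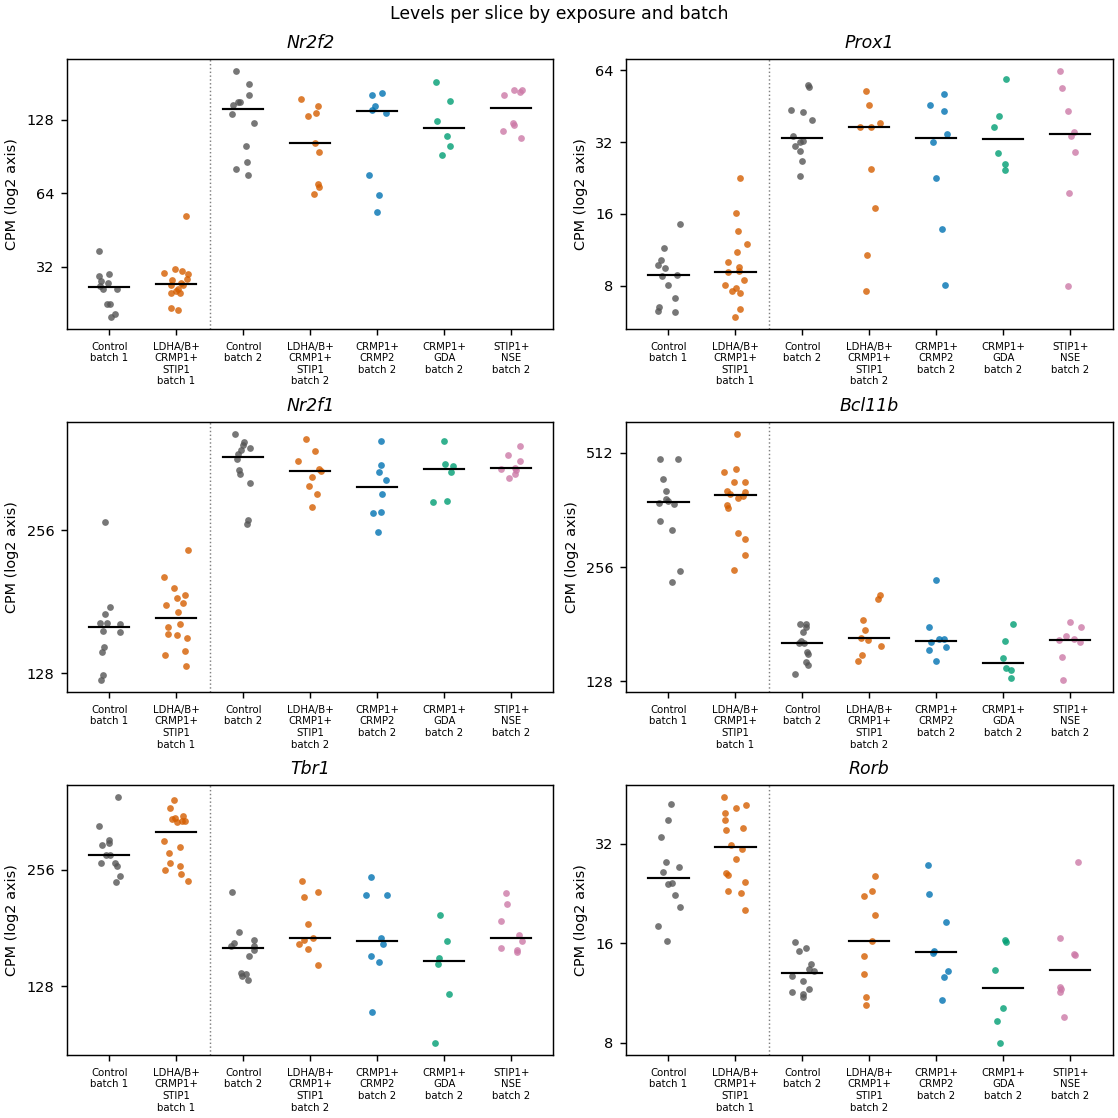
CPM (y axis, log2 scale) of 6 genes in each of 71 slices by exposure and batch (x axis); points are slices, bars are medians, and the dotted line separates the batches. The medians of all 6 genes differ between batches in controls and in LDHA/B+CRMP1+STIP1 slices. Single slices of batch 2 reach batch 1 levels of every gene shown except Nr2f2.

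The exposed slices followed the same batch levels. In LDHA/B+CRMP1+STIP1 animals Nr2f2 had medians of 27.1 CPM in batch 1 and 103 CPM in batch 2, Bcl11b 397 and 167 CPM, and Rorb 31.3 and 16.3 CPM. Since batch 1 holds no slice of 3 of the 4 patterns, each pattern was compared with all 24 controls with 1 surrogate variable in the model, and then with the 12 controls of batch 2 alone.

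The general comparison of 47 exposed with 24 control animals called 0 of the 28 genes (0.0321% of all genes passed). At an unadjusted p under 0.05 there were 8 higher genes and 1 lower gene, 9 of 28, beside 10.3% of all genes, and DESeq2 (0.128% of all genes) and the limma fit with litter as a random effect (0.0%) also called 0. The smallest p belonged to Rorb (log2 change 0.21 ± 0.073, FDR = 0.342), Pou3f3 (0.15 ± 0.053, FDR = 0.342) and Neurod2 (0.16 ± 0.060, FDR = 0.346). Of 28 estimates, 19 lay above 0, with a median of 0.06 beside 0.003 for all genes. Within batch 2 alone, 0 of the 28 had an unadjusted p under 0.05, beside 6.4% of all genes.

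CRMP1+CRMP2 was the pattern with calls. The upper layer genes Mdga1 and Cux2, the subplate and corticofugal factor Sox5 and the differentiation factor Neurod2 were higher, and Etv1, an ETS factor of layer V neurons, was lower, 4 higher and 1 lower of 28 at FDR < 0.1 in edgeR with each pup as a replicate. With litter as a random effect, and with counts summed per litter, 0 of 28 were called (0.063% and 0.0% of all genes). In the edgeR fit with each pup as a replicate, 11.4% of all genes tested passed, 4.83% as higher and 6.56% as lower. There the 28 genes had a median log2 change of 0.13 beside 0.007 for all genes. The 35 other pallial neuron genes tested had a median of 0.0214, with 5 called higher and 4 lower. This fit called no hippocampal field marker and no progenitor regulator, whereas DESeq2 called the same 5 genes and Pou3f2 (6 of 28; 13.2% of all genes).

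Mdga1, a cell-surface protein of upper layer neurons, ran from 89.3 to 201 CPM (median 113) in the 8 CRMP1+CRMP2 slices, from 79.1 to 128 CPM (median 90.9) in batch 2 controls and from 82.9 to 169.6 CPM (median 110.3) in batch 1 controls. The log2 change was 0.39 ± 0.10 (FDR = 0.0273). The ranges overlapped, and 2 exposed slices stood well above every batch 2 control, a female of litter 9_1 at 167 CPM and a male of litter 9_6 at 201 CPM. Cux2 ran from 96.4 to 270.2 CPM (median 129.6), against 97.1 to 179.6 CPM (median 111) in batch 2 controls (0.29 ± 0.091, FDR = 0.0612). Its 2 highest slices were again these animals, at 229 and 270.2 CPM. Neurod2 ran from 97.2 to 273 CPM (median 163), against 115 to 185 CPM (median 136; 0.29 ± 0.094, FDR = 0.068), with the same animals at 253 and 273 CPM. Sox5 ran from 36.7 to 68.1 CPM (median 40.9), against 28.9 to 43.3 CPM (median 35.97; 0.26 ± 0.082, FDR = 0.0551). Etv1 ran from 89.9 to 115 CPM (median 104), against 99.6 to 123 CPM (median 111; -0.14 ± 0.049, FDR = 0.0755), the narrowest of the 5 differences. All these log2 changes and FDR values come from the fit to all 24 controls with the surrogate variable. The CRMP1+CRMP2 medians of Cux2, Neurod2 and Sox5 lay above those of batch 2 controls but below those of batch 1 controls given earlier.

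The 9_6 littermates, both male, were at opposite ends. The other male of that litter had the lowest Mdga1, Cux2, Neurod2 and Sox5 of the group, 89.3, 96.4, 97.2 and 36.7 CPM. The diencephalon markers summed to 373 CPM in the first male and to 1469 CPM in the second, and to 241 CPM in the 9_1 female, where the 12 batch 2 controls ran from 571 to 1300 CPM. That female also held 229 CPM of pineal markers and 3582 CPM of choroid plexus markers. In this contrast all 8 choroid plexus and all 4 pineal markers were higher, and 0 of 19 striatum and interneuron markers were higher and 3 lower. Of 20 diencephalon markers 1 was called higher and 0 lower. Their estimates lay above 0 for 12 and below 0 for 8, with a median log2 change of 0.157. Leaving out these 2 slices, with the 1 control that was also under 600 CPM of diencephalon markers, left 0 of 28 calls (0.0395% of all genes), with log2 changes of 0.21 ± 0.11 for Mdga1, 0.26 ± 0.094 for Sox5, 0.10 ± 0.083 for Cux2, 0.13 ± 0.099 for Neurod2 and -0.10 ± 0.058 for Etv1. Leaving out the first 9_6 male alone also left 0 calls (1.62% of all genes).

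**Figure D3:**
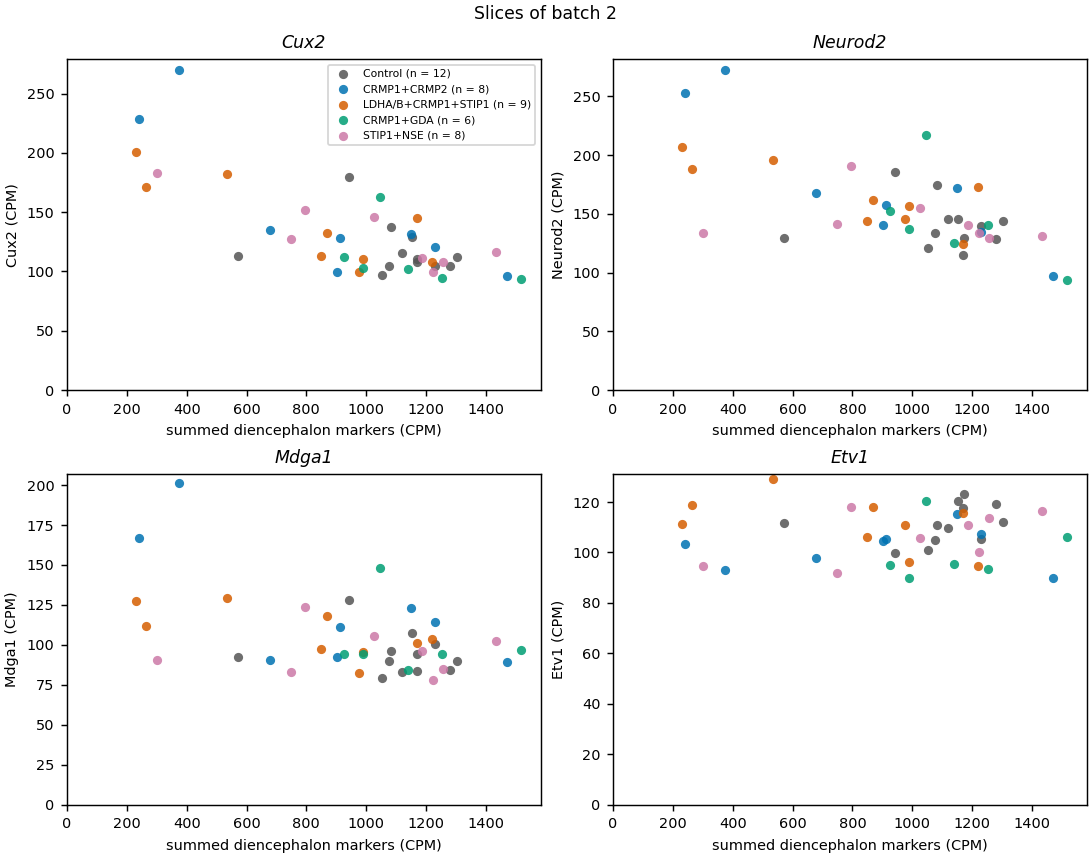
CPM of Cux2, Neurod2, Mdga1 and Etv1 (y axes) against the summed CPM of diencephalon markers (x axes) in the 43 slices of batch 2, coloured by exposure. The 2 CRMP1+CRMP2 slices at 241 and 373 CPM of diencephalon markers hold the highest levels of Cux2, Neurod2 and Mdga1, and Etv1 shows no such order.

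When CRMP1+CRMP2 was set against batch 2 controls only and sex was the covariate, 1 of 28 genes was called (1.01% of all genes): Cux1, a homeodomain factor of upper layer neurons, which ran from 97.5 to 151 CPM (median 132) in CRMP1+CRMP2 and from 101 to 121 CPM (median 110.1) in the controls (log2 change 0.24 ± 0.063, FDR = 0.0998). The estimates of the 5 genes above kept their sign there, at 0.40 ± 0.14 for Mdga1, 0.36 ± 0.10 for Sox5, 0.38 ± 0.17 for Cux2, 0.33 ± 0.15 for Neurod2 and -0.11 ± 0.052 for Etv1, with FDR from 0.107 for Sox5 to 0.235 for Etv1. With litter as a random effect 0 were called (0.063% of all genes; Mdga1 0.42 ± 0.13, FDR = 0.145), and with counts summed per litter 0 as well (0.0%; lowest FDR 0.408), with 9 genes (beside 15.2% of all genes) and 10 genes (beside 12.2%) at an unadjusted p under 0.05. Other covariates moved the count both ways: 15 of 28 with the first 2 principal components (PC1 and PC2; 18.9% of all genes), Lhx2, Pou3f2, Pou3f3 and the hippocampal marker Wfs1 among them, 1 (Mdga1) with the diencephalon marker mean (6.43%), 1 (Cux1) with batch and sex (3.87%) and 1 (Sox5) without slices holding pineal markers (2.54%). Upper-quartile scaling gave 6, all higher (10.6%).

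**Figure D4:**
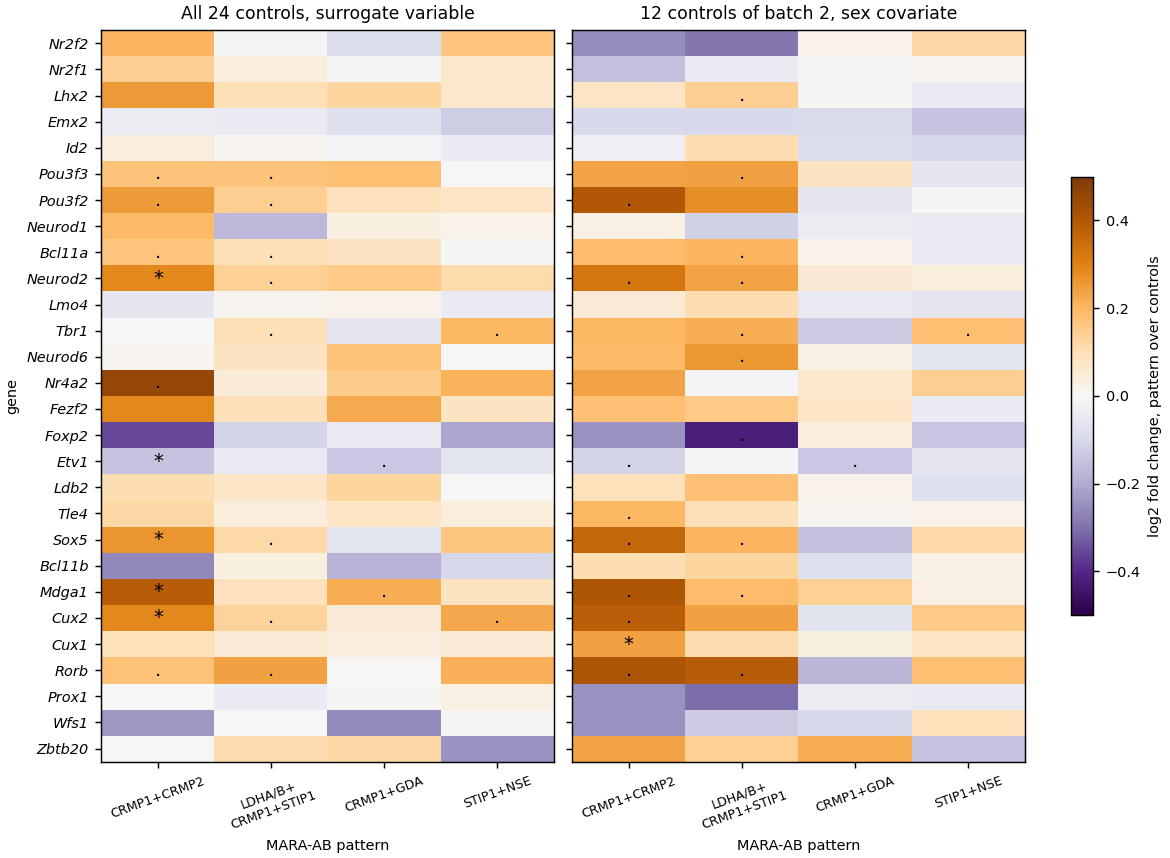
Log2 fold change (colour) of each gene (rows) in each MARA-AB pattern (columns), against all 24 controls with a surrogate variable (left) and against the 12 controls of batch 2 with sex (right); a star marks FDR < 0.1 and a dot an unadjusted p under 0.05. Stars stand only in the CRMP1+CRMP2 columns, 5 on the left and 1 on the right.

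In LDHA/B+CRMP1+STIP1, 0 of 28 genes passed against all controls (0.0157% of all genes). At an unadjusted p under 0.05 there were 8, all higher, beside 7.17% of all genes, and DESeq2 (0.118%) and the limma fit with litter (0.0%) also called 0. Pou3f3 had a log2 change of 0.17 ± 0.051 (FDR = 0.327), Rorb 0.24 ± 0.073 (FDR = 0.327) and Pou3f2 0.14 ± 0.054 (FDR = 0.526). Pou3f3 had medians of 346 CPM in the exposed and 322 CPM in the control slices of batch 1, and 253 and 226 CPM in batch 2. Pou3f2 had medians of 142 and 126 CPM in batch 1, and 85.9 and 80.05 CPM in batch 2. Rorb ran from 20.1 to 44.2 CPM (median 31.3) in 16 exposed slices of batch 1, where the controls ran from 16.3 to 42.1 CPM (median 25.3), and from 10.4 to 25.6 CPM (median 16.3) in 9 exposed slices of batch 2, where the controls ran from 11.04 to 16.2 CPM (median 12.97). The ranges overlapped in both batches.

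Within batches, 0 genes passed in batch 1 (0.0161% of all genes; 1 at an unadjusted p under 0.05, beside 5.45% of all genes) and 0 in batch 2 (0.0%; 10, beside 5.62%). With litters as the unit the 10 became 1 as a random effect (beside 1.16% of all genes) and 2 with summed counts (beside 1.17%). Rorb differed by 0.25 ± 0.13 in batch 1 and by 0.39 ± 0.14 in batch 2, and Pou3f3 by 0.19 ± 0.082 and 0.24 ± 0.11. Foxp2 ran from 31.9 to 91.2 CPM (median 69.2) in the exposed slices of batch 2 and from 51.3 to 118 CPM (median 86.5) in its controls. The difference between the batch effects was called for 0 of 28 genes (0.11% of all genes; 0 at an unadjusted p under 0.05 in edgeR, beside 3.05%, and 1 in DESeq2), with an interval at the 95% level for Foxp2 of -0.88 to 0.007, for Nr2f2 of -0.82 to 0.03 and for Bcl11a of -0.03 to 0.33. In batch 2, the male and female of litter 9_4 and a female of litter 9_24 had 265, 229 and 534 CPM of diencephalon markers. Without them and the 1 control under 600 CPM, the count at an unadjusted p under 0.05 was 1, beside 2.57% of all genes. Without litter 9_4 alone the count was 0, but the share of all genes at that p is not given here for comparison.

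In CRMP1+GDA (6 animals) and STIP1+NSE (8 animals) 0 of 28 genes passed, beside 0.0% and 0.0474% of all genes. At an unadjusted p under 0.05 there were 2 in each, beside 3.65% and 3.19% of all genes, and DESeq2 (0.0% and 0.0237%) and the limma fit with litter (0.0% in each) called 0 in both. The smallest p in CRMP1+GDA belonged to Etv1 (-0.14 ± 0.063), Mdga1 (0.22 ± 0.10) and Pou3f3 (0.18 ± 0.094), each with FDR = 0.999. Etv1 ran from 89.8 to 120.5 CPM (median 95.2) in these slices, a range that takes in that of CRMP1+CRMP2. Mdga1 ran from 84.1 to 148 CPM (median 94.3) and Pou3f3 from 153 to 346 CPM (median 248), both overlapping the batch 2 controls. In STIP1+NSE they belonged to Tbr1 (0.20 ± 0.055, FDR = 0.692), Cux2 (0.23 ± 0.082) and Sox5 (0.16 ± 0.091). Cux2 ran from 99.4 to 183 CPM (median 122) and Sox5 from 26.1 to 46.1 CPM (median 38.6) in these slices. Tbr1 ran from 157 to 224 CPM (median 170.5), against 133 to 224 CPM (median 161) in batch 2 controls. The log2 changes in both patterns come from the fit to all 24 controls with the surrogate variable. The patterns share their controls. Side by side, the log2 changes of Mdga1 were 0.39, 0.09, 0.22 and 0.08 in CRMP1+CRMP2, LDHA/B+CRMP1+STIP1, CRMP1+GDA and STIP1+NSE, and those of Etv1 -0.14, -0.04, -0.14 and -0.06.

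Male and female offspring differed in 0 of 28 genes (0.0641% of all genes; 3 at an unadjusted p under 0.05, beside 4.69%). In batch 2 controls, the 4 pups of litter 9_10 were all female and the 4 of litter 9_25 all male. Sex and litter cannot be fully told apart in those controls, here or where sex is a covariate. Rorb had the smallest p. In batch 1 it ran from 16.3 to 44.2 CPM (median 24.3) in 14 males and from 22.4 to 42.1 CPM (median 34.4) in 14 females, and in batch 2 from 8.00 to 23.1 CPM (median 12.8) in 21 males and from 9.29 to 28.1 CPM (median 15.04) in 22 females. The log2 change, male over female, was -0.32 ± 0.085 (FDR = 0.456). The ranges overlapped in both batches. DESeq2 called 0 (0.0641% of all genes), and the limma fit with litter as a random effect called Rorb alone (FDR = 0.0488; 0.0721%). Cux1 (-0.08 ± 0.036) and Nr4a2 (0.21 ± 0.094) followed, each with FDR = 0.987. Cux1 had medians of 161 CPM in males and 174 CPM in females of batch 1, and 109.6 and 115 CPM in batch 2. Nr4a2 had medians of 43.2 and 37.8 CPM in batch 1, and 75.0 and 73.9 CPM in batch 2, with overlapping ranges for both genes.

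Across slices of the same group and batch the genes varied in blocks. Correlations are given as descriptions over 71 slices, after subtracting each group and batch mean of log2 CPM. All values share a library and its scaling, and littermates share a dam. Of 378 gene pairs, 108 had Pearson's r over 0.5 and 37 under -0.5. The closest pairs were Pou3f2 with Pou3f3 (r = 0.896), Neurod6 with the LIM-domain binding cofactor Ldb2 (0.884), Cux2 with Pou3f2 (0.855) and Ldb2 with Id2 (0.85). Deep layer genes were divided: with Pou3f2, r was 0.816 for Ldb2, 0.705 for Sox5, 0.658 for Fezf2 and 0.633 for Tle4, but 0.221 for Etv1, -0.124 for Bcl11b, -0.14 for Nr4a2 and -0.665 for Foxp2. Lhx2 went with Fezf2 (0.841) and Id2 (0.838). Opposite to this block stood Wfs1 and Foxp2: Wfs1 with Fezf2 had r = -0.755 and with Neurod6 -0.725, and Foxp2 with Pou3f3 -0.725. Wfs1 was thus low in the slices where these cortical genes were high. Its r was 0.727 with the mean of striatum and interneuron markers and 0.488 with that of diencephalon markers, so its level need not stand for CA1.

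The mean of the diencephalon markers ran against the block. Its r was -0.763 with Rorb, -0.689 with Cux2, -0.677 with Pou3f2 and -0.604 with Tbr1, and 0.752 with Foxp2, 0.608 with Nr2f2 and 0.494 with Prox1. In all, 10 genes lay under -0.5 and 2 over 0.5. For Prox1 the batches differed, -0.189 in batch 1 (28 slices) and 0.728 in batch 2 (43 slices), and for Nr2f2 0.292 and 0.721. The mean of striatum and interneuron markers was related to Bcl11b (0.886 in batch 1, 0.275 in batch 2), Foxp2 (0.907 and 0.285) and Wfs1 (0.821 and 0.602), and inversely to Fezf2 (-0.882 and -0.664) and Mdga1 (-0.83 and -0.651). For Foxp2 the relation to the diencephalon mean was similar in both batches (0.694 and 0.778). The part of slice position in these relations was not tested.

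**Figure D5:**
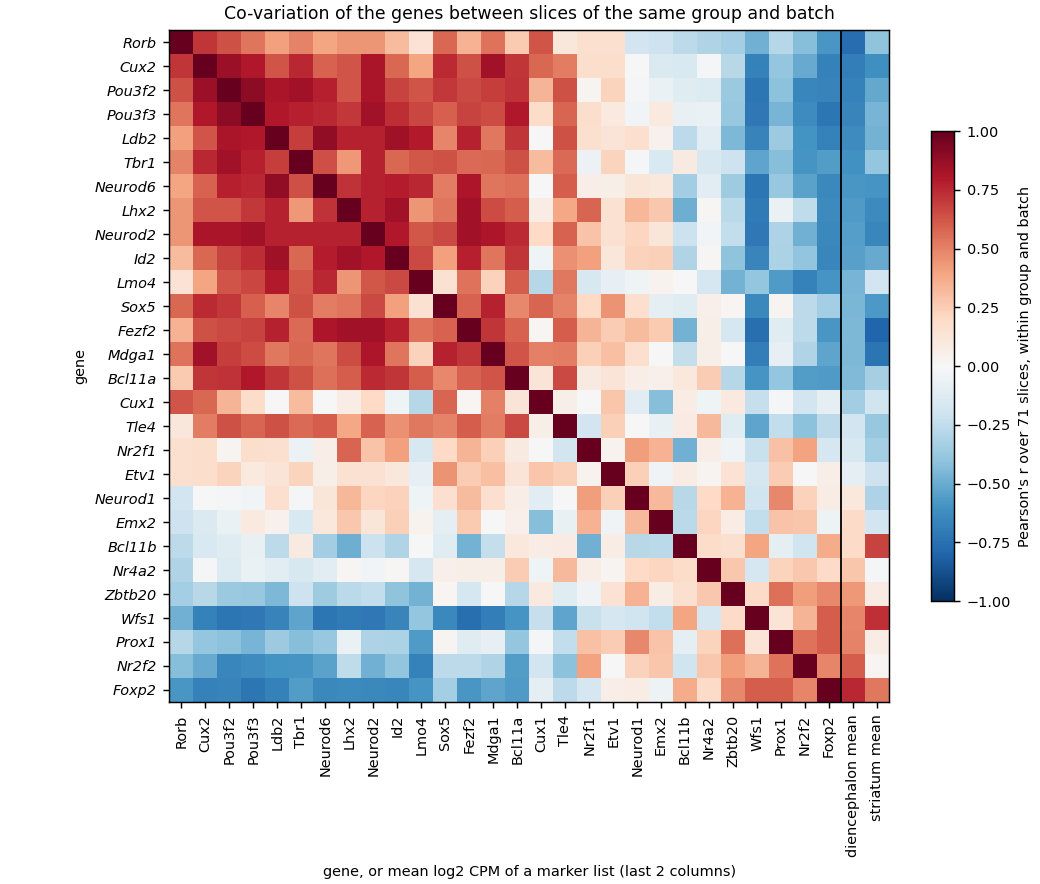
Pearson's r (colour) between genes over 71 slices after subtraction of group and batch means of log2 CPM; the last columns give r with the mean of diencephalon and of striatum and interneuron markers. Genes are ordered by r with the diencephalon mean, from Rorb (-0.763) to Foxp2 (0.752), and the red block holds Cux2, Pou3f2, Pou3f3, Neurod2 and their neighbours.

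Wide spread also occurred without exposure, here in 1 control litter that held extremes of the 71 slices. In control litter IgG1 of batch 1, 1 male had 153 CPM of Lhx2, 94.95 of Fezf2, 213 of Neurod2, 214 of Id2 and 7.14 of Wfs1, with striatum and interneuron markers at 793 CPM. His brother had 41.3 CPM of Lhx2, 26.3 of Fezf2, 135 of Neurod2, 92.2 of Id2 and 18.5 of Wfs1, with these markers at 1765 CPM. The second male held the lowest Fezf2 of all 71 slices. In batch 2, Prox1 fell under 9 CPM in 3 slices, the 9_1 female of CRMP1+CRMP2 (8.03 CPM), the 9_4 female of LDHA/B+CRMP1+STIP1 (7.63 CPM) and the 9_2 female of STIP1+NSE (7.96 CPM), while all 12 controls of that batch had 23.1 CPM or more. These 3 slices had 241, 229 and 300 CPM of diencephalon markers. Over the 7 slices of batch 2 under 600 CPM of these markers, a description with no test, Prox1 ran from 7.63 to 26.7 CPM and Foxp2 from 25.4 to 51.3 CPM, beside 19.6 to 63.4 CPM and 53.6 to 145 CPM in the other 36.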

How the data were processed

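Poly-A libraries of 71 slices were sequenced in paired ends. The authors aligned reads to rn7 with STAR 2.5.4b and counted them per gene with featureCounts; its options and strand setting are not given in the sources used here. The deposited values are whole-number counts without normalization, beside exon lengths in bases, which the authors' counter wrote; 74.5% of counts from 1 to 9 are even, so halved counts were tried. Totals per library ran from 24880182 to 36234952 counts. Groups, litters and sexes come from the labels, batch from the title series.

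CPM and RPKM were computed with TMM factors. Tests used edgeR 4.0.16 in R 4.3.3 (quasi-likelihood, robust, FDR < 0.1 over all genes tested), with 1 surrogate variable (sva 3.50.0) for exposures against all controls, and sex or batch elsewhere, as described. Genes had 1 CPM or more in 8 samples, or over 1 CPM in 2 samples for patterns. Alternatives used DESeq2 1.42.0, limma 3.58.1 with litter as random effect, sums per litter, other factors, filters and covariates, and left-out litters. Code was tested on simulated data. Each pup counts as a replicate, littermates share a dam, and p-values measure the spread between pups. The genes and marker lists were chosen with earlier results of these data known. Any of the listed genes could be named; values by group were given for genes with FDR < 0.1, the 3 smallest p in each comparison and the most and least variable genes.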

Additional observations from a re-analysis of the deposited data

Results flagged for a closer look

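In groups of 6 to 9 slices, 112 sets of values were examined for a slice far from its group, and 11 stood apart by Dixon's ratio (the gap to the nearest slice over the whole range), where chance alone gives about 1 in 20, or 5.6. In CRMP1+CRMP2 these were Bcl11b in a 9_16 female (ratio 0.642; 237 CPM beside 178 in the next slice) and, in the 9_6 male described above, Sox5 (0.543) and Tle4 (0.596; 217 CPM beside 167). In CRMP1+GDA all came from litter 9_8: the male was highest in Cux2 (0.735; 163 CPM beside 112) and Mdga1 (0.799; 148 CPM beside 97.1), and the female was highest in Foxp2 (0.674; 145 CPM beside 88.5) and lowest in Ldb2 (0.702; 62.5 CPM beside 109). In STIP1+NSE the 9_7 male was highest in Neurod2 (0.585) and Neurod6 (0.56), the 9_2 female in Rorb (0.622; 28.1 CPM beside 16.6) and the 9_7 female in Zbtb20 (0.618; 21.1 CPM beside 11.6). The 112 sets are not independent, since correlated genes were read in the same slices. The 11 beside 5.6 is therefore a description only.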

How the results depend on the processing

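The count of 5 among 28 genes in CRMP1+CRMP2 became 1 within batch 2 alone and 1 with batch and sex as covariates (in both Cux1, none of the 5), 15 (14 higher, 1 lower) with PC1 and PC2, 1 with the diencephalon mean added, 0 with litter as a random effect, 0 with counts summed per litter, 0 without slices low in diencephalon markers and 1 without slices holding pineal markers. Upper-quartile factors gave 6 higher and 0 lower. Leaving out 1 exposed litter, 1 exposed animal or 1 control litter gave 0 to 9 calls, while the share of all genes called went from 0.324% to 22.8%: 0 without litter 9_6 (0.324%) or its first male (1.62%), 3 without litter 9_11 (6.31%), 3 without that litter's female (5.86%), 2 without control litter 9_5 (8.02%), 3 without IgG1 (9.14%) and 9 without 9_10 (22.1%). The cause was not tested. In LDHA/B+CRMP1+STIP1 leaving out litters gave 0 to 1 calls, the 1 being Pou3f3 without 9_9 (0.347% of all genes). Male against female gave 1 (Rorb) with litter as a random effect (0.0721%). Over all 28 genes, comparisons and alternatives, 4032 estimates, 81 calls were lost, 35 were gained (31 of them in CRMP1+CRMP2) and 312 estimates changed sign. Of these sign changes, 0 were of a gene called in the main fit of the same comparison, and 0 of a gene called under the alternative. Alternatives on slices low in diencephalon or rich in pineal markers and on single animals and control litters were added after the data were seen. No paired analysis was possible because the labels give no replicate numbers shared across exposures, and litters do not cross them. With 6 to 9 animals from 3 to 5 litters in 4 of the groups, small differences could not be detected.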

Other observations

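A female of litter IgG3, exposed to LDHA/B+CRMP1+STIP1 in batch 1, had the highest Prox1 of that batch (22.7 CPM) with Lhx2 at 131, Nr2f1 at 233 and Bcl11b at 252 CPM, where the other 15 exposed slices of batch 1 had 5.93 to 16.1 CPM of Prox1. A male of litter RNA2 in the same group had the highest Nr2f2 of batch 1 (51.6 CPM) and 621 CPM of choroid plexus markers.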
